A study of Mus musculus with 7 samples.

Results

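The enzymes that write cytosine methylation and those that start its removal were read in mouse B-cell acute lymphoblastic leukaemia (B-ALL): the methyltransferase genes Dnmt1, Dnmt3a and Dnmt3b, the maintenance cofactor Uhrf1, and the dioxygenase genes Tet1, Tet2 and Tet3. These 7 genes were chosen by name, with no measured value in the rule but with earlier results of these data known. They were taken from the 24726 gene entries of each deposited table, and each matched 1 entry. The deposited name of Dnmt1 carries a tag that reads as overlap with another gene (no source used here explains it). Reads of a neighbour may therefore be counted in it, or reads of its own left out. Whether this affects both groups alike was not tested. The other 6 names carry no tag.

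Polyadenylated RNA came from 5 leukaemias on the C57BL/6 background. In the 3 Pax5-Etv6 B-ALL samples (genotype Cdkn2ab+/-Pax5Etv6/+) a fusion of the B-lineage factor Pax5 with the ETS-family repressor Etv6 occupies 1 Pax5 allele, and the Cdkn2a-Cdkn2b locus is heterozygous; the tissue was whole lymph node taken ex vivo. The 2 control B-ALL samples (genotype Trp53-/- NrasG12D/+Retroviral-Myc) are Trp53-null with an activating Nras mutation and Myc added by retrovirus; their tissue was whole bone marrow, cultured for a short time. The controls are therefore another leukaemia and not healthy B cells, part of their Myc comes from a virus, and neither tissue was sorted, so host cells are included. Genotype differs between the groups together with tissue, culture and cDNA protocol, and these cannot be told apart. Nothing in the labels ties each library to its own animal, and p-values therefore measure only the spread between these samples, which may be technical.

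DNA methyltransferases add a methyl group to cytosine, mostly where it is followed by guanine (CpG). Dnmt3a and Dnmt3b set the mark on unmethylated DNA, while Uhrf1 recognises newly copied, half-methylated CpG and brings Dnmt1 to it, so that the pattern passes to daughter cells. TET enzymes oxidise methylcytosine with 2-oxoglutarate as cosubstrate, and the oxidised base is lost at replication or cut out by base excision repair. In blood cells Tet2 and Dnmt3a are well known as genes mutated in leukaemia, and Tet2 and Tet3 act together in B-cell development.

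Promoter sequence is shown for the TET gene with the fewest reads, for the TET gene with the most CpG before its start, and for Uhrf1 and Dnmt1, which work as a pair. RefSeq windows (GRCm38.p6, the 250 bases before each annotated start) were found for all 7 members, 12 windows in all, and 11 of them held more CpG than the median of 6 over 32841 windows of the mouse genome. Tet1, nearly silent here, and Tet2, which was expressed, both have a single annotated start. They are printed with each CpG in capitals, Tet1 from chr10:62887325-62887574 (minus strand) and Tet2 from chr3:133544391-133544640 (minus strand).
Tet1: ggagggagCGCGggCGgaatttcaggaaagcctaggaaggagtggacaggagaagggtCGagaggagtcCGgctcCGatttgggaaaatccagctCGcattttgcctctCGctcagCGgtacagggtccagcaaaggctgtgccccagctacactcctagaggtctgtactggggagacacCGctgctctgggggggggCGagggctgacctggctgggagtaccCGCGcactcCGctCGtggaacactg
Tet2: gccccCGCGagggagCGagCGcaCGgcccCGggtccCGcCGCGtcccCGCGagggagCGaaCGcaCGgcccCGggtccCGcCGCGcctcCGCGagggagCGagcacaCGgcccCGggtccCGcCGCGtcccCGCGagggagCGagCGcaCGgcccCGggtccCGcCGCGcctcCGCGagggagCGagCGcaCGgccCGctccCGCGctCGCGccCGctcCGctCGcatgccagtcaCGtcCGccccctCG
The Tet1 window held 15 CpG, more than 72.7% of all windows, and the Tet2 window 51, more than 99.9%. The window of Tet3, the TET gene with the highest level here, held 17 (76.5%), close to that of Tet1, so CpG number and level did not go together among these 3 genes. Methylation itself was not measured in the libraries used here, so these letters only show how many CpG each promoter offers.

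Uhrf1 and Dnmt1 act in S phase, so their windows were searched for words bound by the E2F factors of the G1 to S transition (TTTGGCGC, TTTCCCGC, TTTCGCGC and TTTGCCGC, both strands). Such a word was present in 1.86% of all windows and in 2 of the 12 member windows, 1 of Dnmt1 and 1 of Uhrf1. Both are shown with the word in capitals and 10 bases on either side, Dnmt1 from chr9:20952825-20952852 (minus strand, where the word reads on the opposite strand) and Uhrf1 from chr17:56304118-56304145 (plus strand).
Dnmt1: gtttccgcgcGCGCGAAAaagccggggt
Uhrf1: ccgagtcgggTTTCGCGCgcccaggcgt
The same word, TTTCGCGC, was found in both. The windows of the other annotated starts of Dnmt1 and Uhrf1 held no such word. Those other starts lie upstream of the words shown, so each word falls after them. The word CCGGAAGT, bound by many ETS factors, was in 2.88% of all windows and in none of the 12. A match is a description of letters and does not show binding.

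Levels are given in transcripts per 1000000 (TPM), reads per gene length scaled to the same total in each library. Whole reads could be recovered from these values as lower bounds, 20110795 to 50994959 per library. As a check on the labels, Trp53 stood at 454 to 490 TPM in the 3 Pax5-Etv6 libraries against 11.3 and 20.5 TPM in the controls, Etv6 at 35.8 to 41.1 against 12.3 and 12.1 TPM, and Myc at 286 to 387 against 1544 and 2095 TPM. The B-lineage factor Pax5 was present in every library, at 200 to 252 TPM, and was not called. Of 10 B-lineage markers, all tested, 4 rose, 2 fell and 4 were not called: Cd79a, Cd79b, Ebf1 and Vpreb3 rose by 1.18 to 2.01 on the log2 scale, while Blnk fell by 2.99 and Cd24a fell by 0.97. Over all tested genes 21.9% rose and 29.7% fell.

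Uhrf1 alone among the 7 genes was called between the leukaemias. In Pax5-Etv6 B-ALL the Uhrf1 level was 1.74-fold that of the controls, and the 5 other members that could be tested had log2 fold changes between -0.10 and 0.36 that were not called. In a limma fit of log2(TPM + 1), called where the Benjamini-Hochberg value over every tested gene was under 0.05, 1 of the 6 tested members rose, none fell and 5 were not called (at an unadjusted p under 0.05 also 1 and 0, and with voom 1 and 0). Over all 11805 genes tested, 51.7% were called, 21.9% higher and 29.7% lower in Pax5-Etv6 B-ALL. The median size of the log2 change was 0.13 over the 6 members and 0.80 over all tested genes, and 5 of the 6 members against 32.7% of all genes differed by under 0.5. These counts describe 6 genes and carry no test of their own, and the intervals given below leave room for changes in members that were not called.

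**Figure D1:**
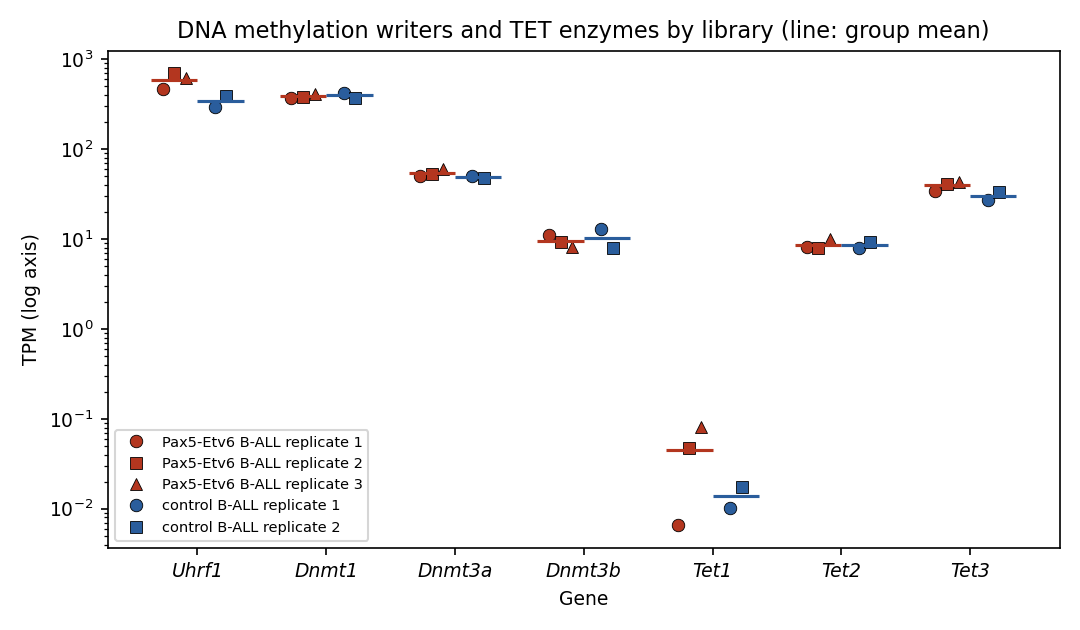
TPM of the 7 members on a log axis, 1 point per library, with lines at the group means of the 3 Pax5-Etv6 and 2 control B-ALL libraries. The groups lie apart for Uhrf1, at 462 to 696 against 293 and 386 TPM, and interleave for Dnmt1, Dnmt3b, Tet1 and Tet2.

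Maintenance methylation was the most highly expressed arm. Uhrf1, the reader of half-methylated DNA, stood at 462, 696 and 621 TPM in Pax5-Etv6 replicates 1, 2 and 3 and at 293 and 386 TPM in control replicates 1 and 2. All 3 Pax5-Etv6 libraries lay above both controls, with replicate 1 nearest to them. The means were 593 ± 120 TPM (SD, n = 3) and 340 ± 65.5 TPM (SD, n = 2), a log2 fold change of 0.79 ± 0.22 SE (95% confidence interval 0.26 to 1.33, limma adjusted p = 0.0253). Of all tested genes 49.8% differed by no more than this. Uhrf1 no longer passed without Pax5-Etv6 replicate 2 (0.67, adjusted p = 0.0684) or 3 (0.75, adjusted p = 0.0687), without control replicate 1 (0.60, adjusted p = 0.157), and with no filter on low genes (0.79, adjusted p = 0.0576). Across 15 alternatives the adjusted p ran from 0.00845 to 0.157, and the direction held in all 15. In whole tissue, more cells with Uhrf1 RNA and more Uhrf1 RNA per cell cannot be told apart.

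Dnmt1, the maintenance methyltransferase that Uhrf1 recruits, whose entry carries the overlap tag, was not called. Its levels were 368, 382 and 407 TPM against 426 and 373 TPM. The groups overlapped, with Pax5-Etv6 replicates 2 and 3 between the controls. The means of 386 ± 19.9 TPM (SD, n = 3) and 399 ± 37.6 TPM (SD, n = 2) gave a log2 fold change of -0.05 ± 0.14 SE (limma adjusted p = 0.79). The 95% confidence interval, -0.38 to 0.29, corresponds to 0.768-fold to 1.22-fold, so the estimate of 0.79 for Uhrf1 lies outside it. The interval of Uhrf1 itself begins at 0.26, so the intervals of the 2 genes overlap. Dnmt1 was also the steadiest member among the Pax5-Etv6 libraries, with a coefficient of variation of 5.15% against 20.2% for Uhrf1.

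The ratio of Uhrf1 to Dnmt1 within a library was 1.25, 1.82 and 1.53 in the Pax5-Etv6 replicates and 0.689 and 1.04 in the controls. The groups did not overlap, with a difference of 0.84 on the log2 scale (exact two-sided permutation test, p = 0.1, and 0.175 adjusted over 7 such ratios). With 3 libraries against 2, this exact test cannot give a p under 0.1. Recovered reads are lower bounds that can fall short by a whole factor, separately for each gene. On these bounds Dnmt1 exceeded Uhrf1 in every library, by 25142 to 9127 in Pax5-Etv6 replicate 1. Reads therefore do not settle the order of these 2 genes, and their order in TPM also depends on the gene lengths the authors divided by.

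The de novo methyltransferases kept a fixed order, Dnmt3a above Dnmt3b in all 5 libraries. Dnmt3a stood at 50.2, 52.7 and 60.0 TPM against 50.0 and 47.2 TPM. The lowest Pax5-Etv6 value was just above the higher control, so the groups did not overlap, but the gap was small beside the spread. The log2 fold change was 0.15 ± 0.16 SE (95% confidence interval -0.24 to 0.54, limma adjusted p = 0.451).

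Dnmt3b was lower and more variable. It had 11, 9.18 and 8.11 TPM against 12.8 and 7.89 TPM, and control replicates 1 and 2 were the highest and the lowest of all 5 libraries. The log2 fold change was -0.10 ± 0.30 SE with an interval of -0.81 to 0.62 (limma adjusted p = 0.796). Between 361 and 1154 reads lay behind each value. The ratio of Dnmt3a to Dnmt3b ran from 4.58 to 7.40 in Pax5-Etv6 B-ALL and was 3.90 and 5.98 in the controls (difference 0.26 on the log2 scale, exact two-sided permutation p = 0.5).

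**Figure D2:**
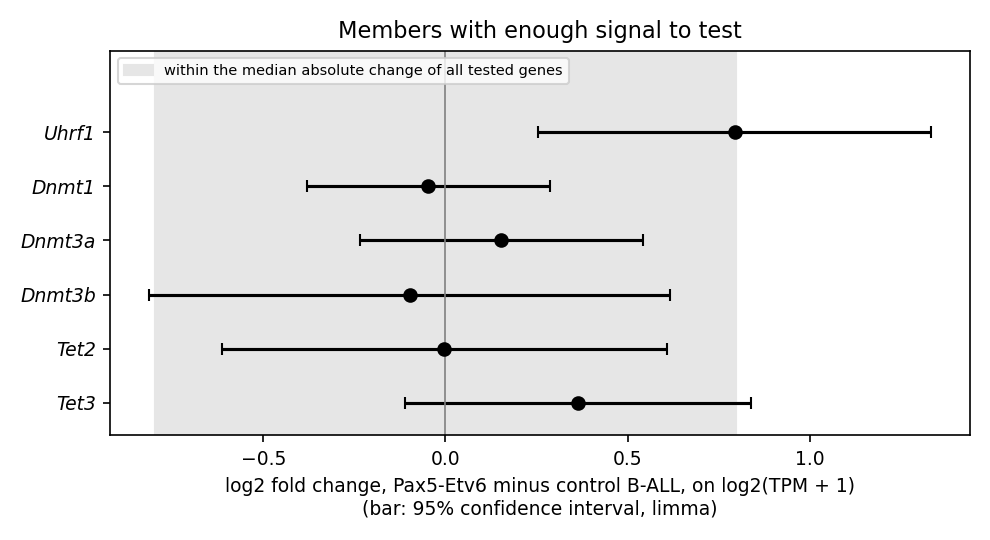
Log2 fold change of the 6 tested members (Pax5-Etv6 minus control B-ALL) with the 95% confidence interval from limma; the grey band reaches to 0.80 on either side, the median size of change over all tested genes. Only the interval of Uhrf1, 0.26 to 1.33, lies on 1 side of 0.

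Among the TET genes, Tet3 was highest in every library, Tet2 next and Tet1 close to absent. Tet3, which can act in place of Tet2 in B cells, stood at 34.1, 41.1 and 43.2 TPM against 27.5 and 33.4 TPM. The groups did not overlap, although Pax5-Etv6 replicate 1 and control replicate 2 were close. The log2 fold change of 0.36 ± 0.20 SE (95% confidence interval -0.11 to 0.84) was not called (limma adjusted p = 0.162). Quantile normalization alone among 15 alternatives brought it past the threshold (0.50, adjusted p = 0.0456), the lowest of a range that reached 0.437.

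Tet2 had 8.05, 7.85 and 9.99 TPM against 7.94 and 9.33 TPM. Its values interleaved between the groups, with means of 8.63 ± 1.18 TPM (SD, n = 3) and 8.63 ± 0.983 TPM (SD, n = 2). The log2 fold change rounded to 0.00 ± 0.25 SE, and the interval of -0.61 to 0.61 leaves room for changes of 0.654-fold to 1.52-fold (limma adjusted p = 0.994). The ratio of Tet3 to Tet2 was 4.23, 5.23 and 4.33 in Pax5-Etv6 B-ALL and 3.46 and 3.58 in the controls (difference 0.38 on the log2 scale, exact two-sided permutation p = 0.1, adjusted 0.175).

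Tet1 rested on single reads. Its values of 0.00656, 0.0469 and 0.0813 TPM against 0.0102 and 0.0174 TPM came from 1, 6 and 15 reads against 3 and 3 reads. Pax5-Etv6 replicate 1 was below both controls and replicates 2 and 3 above them. The exact 95% Poisson interval was 0.0253 to 5.57 reads for replicate 1 and 8.40 to 24.7 reads for replicate 3, for counting error only, since PCR copies are not independent molecules. Tet1 did not reach 1 TPM in any library and was not tested, and no fold change is given because the controls lie at the floor of 3 reads per library.

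Ranked by TPM, Dnmt3a was the third and Tet3 the fourth of the 7 members in all 5 libraries, and Tet1 the last. Uhrf1 led and Dnmt1 followed in 4 libraries, while control replicate 1 had Dnmt1 first. Dnmt3b and Tet2 shared the fifth and sixth places, with Dnmt3b above Tet2 in Pax5-Etv6 replicates 1 and 2 and control replicate 1 and below it in the other two libraries. These neighbours, Uhrf1 with Dnmt1 in the controls and Dnmt3b with Tet2 in both groups, did not differ beyond their spread. The summed TPM of the 3 TET genes was 0.0981, 0.110 and 0.112 of the summed TPM of the 3 methyltransferase genes in Pax5-Etv6 B-ALL and 0.0725 and 0.10 in the controls, values that overlap (exact two-sided permutation p = 0.2).

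The values of Uhrf1 were set beside genes of S phase, the stage at which it acts. Of 27 S-phase and replication genes, 1 rose, 10 fell and 16 were not called, while over all tested genes 21.9% rose and 29.7% fell. The list had a median of -0.35 on the log2 scale, and all tested genes -0.11. Genes of the list that were not called went both ways. Among them, Mcm2, Mcm3, Mcm5 and Chaf1a lay above both controls in every Pax5-Etv6 library (0.34 to 0.49 on the log2 scale). Mcm4, Mcm6, Mcm7, Prim1 and Mki67 lay below both controls. Such a lack of overlap was common, found in 72.2% of all tested genes. Chaf1b, of the histone chaperone that follows the replication fork, rose by 0.87 ± 0.18 SE (limma adjusted p = 0.00915). Rfc4, of the clamp loader, whose entry carries the overlap tag, fell by 1.73 (adjusted p = 0.000779) and Pola1, of the polymerase that starts new strands, fell by 1.52 (adjusted p = 0.00348). Without control replicate 2, 6 genes rose, without Pax5-Etv6 replicate 1, 2 rose, and without control replicate 1, 6 fell; 2 or 3 rose under the 3 other scalings and with voom.

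Uhrf1 exceeded the geometric mean of these 27 genes 3.26-fold, 4.33-fold and 3.94-fold in the Pax5-Etv6 replicates and 1.56-fold and 1.98-fold in the controls. The groups did not overlap, and their means differed by 1.12 on the log2 scale, more than for Uhrf1 alone (exact two-sided permutation p = 0.1, adjusted 0.175). Dnmt1 exceeded the same mean 2.60-fold, 2.37-fold and 2.58-fold against 2.26-fold and 1.91-fold, again without overlap. The group means of this log2 ratio differed by only 0.28 (exact two-sided permutation p = 0.1, adjusted 0.175). The proliferation gene Mki67 stood at 250 to 297 TPM against 362 and 321 TPM and was not called (limma adjusted p = 0.0884).

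**Figure D3:**
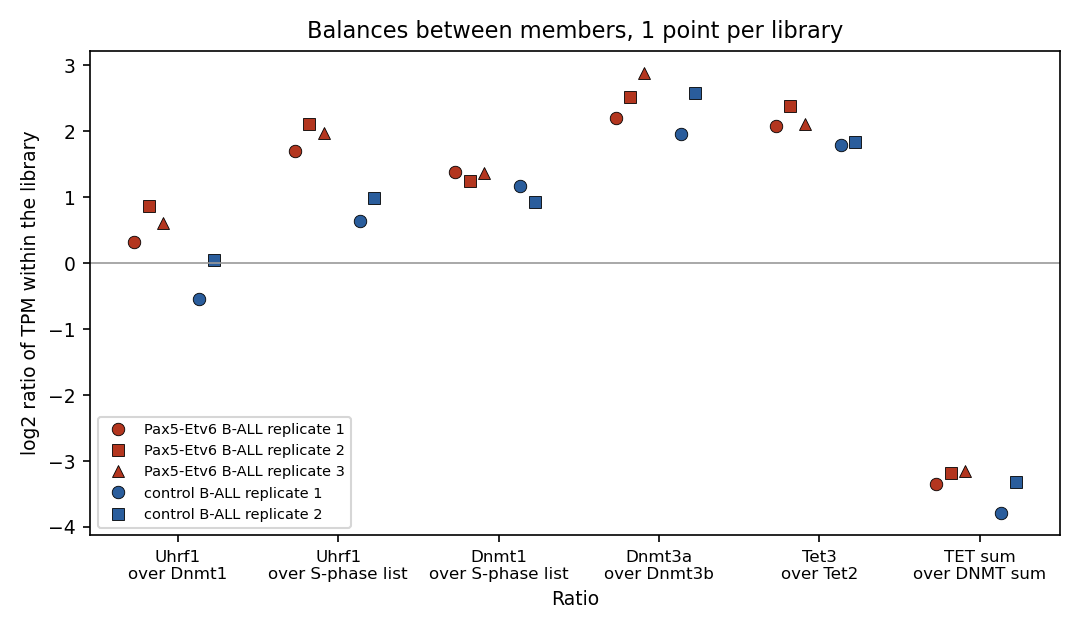
Log2 ratios of TPM within each library, 1 point per library, for 6 balances between members or between a member and the geometric mean of 27 S-phase genes. Uhrf1 over that mean separates the groups most, at 1.70 to 2.11 in Pax5-Etv6 against 0.64 and 0.98 in control B-ALL.

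Markers of other cell types were higher in the Pax5-Etv6 group, as was Uhrf1, but did not all follow Uhrf1 from library to library. Within that group Uhrf1 and the summed macrophage and stromal markers were highest in replicate 2. The summed neutrophil and erythroid markers were lowest there. Of the tested markers 6 of 10 for macrophages, 9 of 9 for neutrophils, 5 of 6 for T cells, 2 of 3 for erythroid cells and 5 of 7 for stroma and endothelium rose. Over all tested genes 21.9% rose. The summed macrophage markers ran from 180 to 608 TPM against 26.1 and 73.2 TPM, with Vsig4 at 0 in every library. Neutrophil markers summed to 32.3 to 265 TPM against 0.878 and 0.681 TPM, and stromal markers to 313 to 998 TPM against 80.5 and 92.1 TPM. Pecam1 alone made up 233 of the 313 TPM in Pax5-Etv6 replicate 1 and 76.9 and 79.9 TPM in the controls, while Col1a1 had 45.6, 405 and 85.2 TPM against 0.634 and 3.93 TPM. T-cell markers summed to 360 to 515 TPM against 15.7 and 70.0 TPM, mostly from Lck (181, 465 and 428 against 6.80 and 11.9 TPM, with the overlap tag) and Cd2 (168, 11.1 and 40.7 against 8.03 and 57.1 TPM), and the defining Cd3e did not pass 0.637 TPM. Erythroid markers summed to 16.9 to 85.1 TPM against 0.891 and 1.21 TPM, mostly from Alas2. Hbb-b1, Hba-a1, Hba-a2, Ccl19 and Ccl21a were listed at 0 in every library, but they carry an overlap or duplicate tag, as do Amd1 and Snrpn, also at 0 throughout, so these zeros do not show absent expression. Their part in the level of Uhrf1 was not tested.

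Most called partners of the methyltransferases, which guide or stabilise them, were lower. Of 19 tested partners, 1 rose, 10 fell and 8 were not called (the list had a median of -0.53 on the log2 scale). The shares over all tested genes were 21.9% higher and 29.7% lower. Hdac1, a histone deacetylase bound by Dnmt1, rose by 1.14 ± 0.15 SE (limma adjusted p = 0.00181), and without control replicate 2 a further partner passed. Hdac2, the other histone deacetylase of the list, went the opposite way to Hdac1. It had 73.2, 97.7 and 86.1 TPM against 279 and 199 TPM and fell by 1.46 (limma adjusted p = 0.00235). Cbx5, the heterochromatin protein HP1 alpha, fell by 1.94 (adjusted p = 0.000766), and the histone H3 lysine methyltransferase Suv39h2, whose entry carries the overlap tag, fell by 1.64 (adjusted p = 0.00388). Hells, the remodeller that opens chromatin to the methyltransferases, had 53.3, 43.9 and 40.2 TPM against 204 and 96.7 TPM and fell by 1.61 (adjusted p = 0.00778). Its partner Cdca7 stood at 265, 361 and 319 TPM against 355 and 342 TPM, which did not pass (adjusted p = 0.458).

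Usp7, which removes ubiquitin from Dnmt1 and Uhrf1, fell by 0.93 (limma adjusted p = 0.00802). Uhrf2, the close relative of Uhrf1, stood at 35.1, 50.4 and 50.0 TPM against 54.2 and 45.5 TPM and did not pass (-0.15 ± 0.22 SE, adjusted p = 0.58). Dnmt3l, the germ-cell cofactor without catalytic activity, did not pass 0.165 TPM in any library and was not tested.

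Readers of the mark were called more often higher than lower. Among all tested genes 21.9% rose and 29.7% fell. Of 10 methyl-CpG readers, 5 rose, 1 fell and 4 were not called (the list had a median of 0.41 on the log2 scale). Only 2 rose without Pax5-Etv6 replicate 2, without replicate 3, without control replicate 1 or with no filter. Zbtb4, a zinc-finger reader, rose by 1.36 ± 0.39 SE (limma adjusted p = 0.0255), which did not hold without control replicate 1 (0.88, adjusted p = 0.146) and with no filter (adjusted p = 0.0732); its size ran from 0.76 with a pseudocount of 5 TPM to 2.00 with voom. Mbd6, whose entry carries the overlap tag, rose by 1.02 ± 0.32 SE (adjusted p = 0.0376). It no longer passed without Pax5-Etv6 replicate 2 (1.03, adjusted p = 0.0696) or 3 (0.86, adjusted p = 0.0979), without control replicate 1 (0.54, adjusted p = 0.195), with no trend (adjusted p = 0.0549) and with no filter (adjusted p = 0.0776). Zbtb33, known as Kaiso, fell by 1.42 (adjusted p = 0.0178), but not without control replicate 1 (-0.99, adjusted p = 0.123).

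Around the TET enzymes, 1 of 8 tested CXXC-domain proteins and TET partners rose, 3 fell and 4 were not called (the list had a median of -0.11 on the log2 scale). Among all tested genes 21.9% rose and 29.7% fell. Cxxc5, a CpG-binding protein that interacts with Tet2, had 204, 386 and 378 TPM against 87.9 and 80.0 TPM and rose by 1.87 ± 0.29 SE (limma adjusted p = 0.00339). Kdm2b fell by 1.34 (adjusted p = 0.00132) and Vprbp, an adaptor of a ubiquitin ligase that modifies TET proteins, fell by 1.08 (adjusted p = 0.00987). Ogt, the sugar transferase that binds Tet2 and Tet3, stood at 21, 38.8 and 51.9 TPM against 70.6 and 60.8 TPM, below the controls in all 3 but short of the threshold (adjusted p = 0.0824). Without control replicate 2, and under median-of-ratios scaling or quantile normalization, 3 genes of this group rose, and 2 rose under 4 other settings.

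Of 15 tested genes of base excision repair and cytosine deamination, 3 rose, 4 fell and 8 were not called (the list had a median of -0.29 on the log2 scale). Over all tested genes the shares were close to this, 21.9% higher and 29.7% lower. The deaminase Apobec3, with the overlap tag, rose by 1.63 ± 0.16 SE (limma adjusted p = 0.000765). The glycosylase Neil1 fell by 1.82 (adjusted p = 0.0132), which did not hold without control replicate 1 (-1.89, adjusted p = 0.083) or 2 (-1.74, adjusted p = 0.0775). Gadd45b fell by 1.63 (adjusted p = 0.0416), but 9 of 15 alternatives ended that call, among them leaving out control replicate 1 (-1.89, adjusted p = 0.124) or 2 (-1.37, adjusted p = 0.197) and Pax5-Etv6 replicate 2 (-1.69, adjusted p = 0.0637) or 3 (-1.14, adjusted p = 0.0516). Without either control library, 2 genes fell. Tdg, the glycosylase that removes TET products, stood between 0.45 and 0.803 TPM, carries the overlap tag and was not tested.

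Most called genes in the lists for the cosubstrates fell. Of 18 genes of 2-oxoglutarate metabolism, 1 rose, 10 fell and 7 were not called (list median -0.65 on the log2 scale). Over all tested genes 21.9% rose and 29.7% fell. The TET enzymes need 2-oxoglutarate, but the list also holds genes that consume it or act after it. The counts are therefore not of supply alone. Ogdh, a subunit of the 2-oxoglutarate dehydrogenase complex, rose by 0.85 ± 0.13 SE (limma adjusted p = 0.00304), while Dlst, another subunit of that complex, fell by 0.68 (adjusted p = 0.0111). Idh2, the mitochondrial isocitrate dehydrogenase, stood at 128, 231 and 236 TPM against 447 and 517 TPM and fell by 1.33 (adjusted p = 0.0103), while its cytosolic counterpart Idh1 was not called (adjusted p = 0.414).

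Of 18 tested genes of the S-adenosylmethionine and one-carbon cycle, none rose, 12 fell and 6 were not called with limma. The shares over all tested genes were 21.9% higher and 29.7% lower. The list had a median of -0.90 on the log2 scale, and none rose at an unadjusted p under 0.05 or with voom. The cycle provides the methyl group, but the list is not limited to genes that make S-adenosylmethionine. Ahcyl2, at 0.309, 0.695 and 0.198 against 8.99 and 5.64 TPM, fell by 2.56 (adjusted p = 0.00183), a size that ran from -1.18 with a pseudocount of 5 TPM to -3.98 with 0.1 TPM and -4.30 with voom. Mthfd2, of the mitochondrial folate pathway, fell by 1.70 (adjusted p = 0.000539). Mat2a, which makes S-adenosylmethionine and carries the overlap tag, had 102, 128 and 127 TPM against 458 and 320 TPM and fell by 1.69 (adjusted p = 0.00147). Ahcy, which clears the inhibitory product of methylation, stood at 25.8, 21.8 and 22.8 TPM against 21.3 and 18.5 TPM, which did not pass (adjusted p = 0.378).

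**Figure D4:**
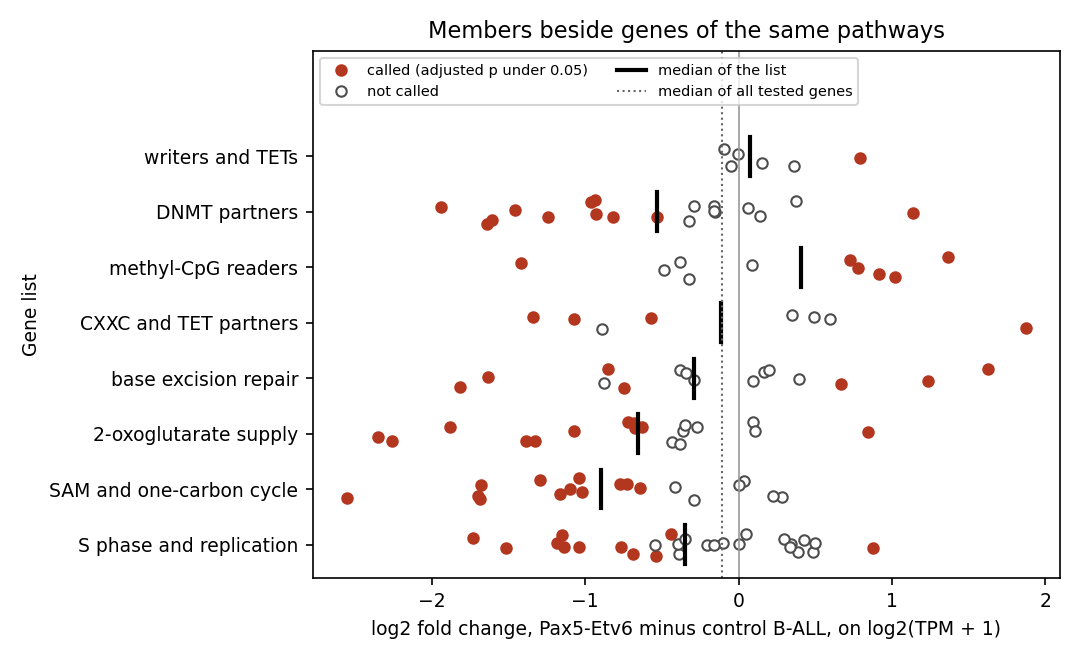
Log2 fold change of every tested gene in 8 lists, filled where called; the black bar is the list's median and the dotted line the median of all tested genes, -0.11. The 6 members lie between -0.10 and 0.79, while the medians of the list labelled 2-oxoglutarate supply and of the one-carbon cycle lie at -0.65 and -0.90.

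The genes closest to each member in their pattern over the 5 libraries were found by the root mean square difference of log2(TPM + 1) profiles, each centred on its own mean. For Uhrf1 they were Mzt2, Pde6d and Sh3gl1 (0.0362, 0.0377 and 0.0611), and for Tet3 they included Tshz1 and Ldb1 (0.022 and 0.0295). Dcps, Nabp1 and Mrpl51 lay nearest to Dnmt1 (0.0221, 0.0346 and 0.0387). Tmcc1, Taf3 and Tollip lay nearest to Dnmt3a (0.0189, 0.0273 and 0.0287), and Abracl, Fam107b and Lysmd3 nearest to Dnmt3b (0.0362, 0.0476 and 0.0538). Cdca5, Pqlc1 and Ivd lay nearest to Tet2 (0.026, 0.0277 and 0.0427). No member was among the nearest genes of another, and with 5 libraries such a match is a description of these samples only.

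Between the groups, 3 of the 6 tested members (Dnmt3a, Tet3 and Uhrf1) had no overlap, all with the Pax5-Etv6 libraries above the controls. Over all tested genes 72.2% had groups that did not overlap in 1 direction or the other.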

How the data were processed

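The deposited values are TPM, 1 table of 24726 gene entries per RNA library, made by the authors and summing to 1000000. The submitters' processing notes name HTSeq 0.5.3, DESeq2 1.4.1 and mm9 without a role; no source used here states the aligner or gene lengths. The labels call the Pax5-Etv6 libraries strand-specific and leave this blank for the controls. The 2 chromatin immunoprecipitation samples were not analysed here.

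The TPM of all 16538 entries above 0 in at least 2 libraries (100%) were whole-number multiples of 1 read (tolerance 1e-06). The recovered reads gave depths and the voom alternative. Genes reaching 1 TPM in 2 or more libraries entered the test on log2(TPM + 1), which understates changes of low genes. The fit used limma 3.58.1 in R 4.3.3 (eBayes with trend, two-sided, without covariates). It left 3 residual degrees of freedom, to which eBayes adds prior ones. P-values were adjusted by Benjamini-Hochberg over all genes tested and called under 0.05. The fit was tested on simulated data. Replicates were numbered in accession order. Ratios used exact permutation tests.

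The members and the 9 pathway and 6 marker lists were chosen with earlier results of these data known. Named genes were the members, up to 2 called genes per list and direction that changed most and averaged 5 TPM or more in 1 group, 3 label genes and the 3 nearest profiles per member. Hells, Cdca7, Usp7, Uhrf2, Dnmt3l, Ogt, Tdg, Idh1, Idh2, Mat2a, Ahcy, Mki67, Dlk1, Rpl10l, Ddx4, Dlst, Amd1, Snrpn, Pax5 and the other markers were added after their values were seen. So were Hdac2, Mcm2, Mcm3, Mcm4, Mcm5, Mcm6, Mcm7, Chaf1a, Prim1 and Sycp3. Some genes that the rule names are not reported here. The 15 alternatives covered a pseudocount of 0.1 or 5 TPM, filtering at 5 TPM or not at all, 3 scalings, no trend, robust eBayes, voom, and leaving out each library.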

Additional observations from a re-analysis of the deposited data

How the results depend on the processing

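Over 15 alternatives Uhrf1 kept its direction (0.60 to 0.99) and was called in 11; Dnmt1, Dnmt3a, Dnmt3b and Tet2 were called in none, and Tet3 in 1. The sign varied for Dnmt1 (-0.14 to 0.07), Dnmt3b (-0.42 to 0.22) and Tet2 (-0.11 to 0.14). The number of members that rose was 0 with no filter, 2 under quantile normalization and 0 to 1 when single libraries were left out. Over all genes, 2588 were higher and 3511 lower, and leaving out 1 library gave 1410 to 2984 and 1954 to 3350, the lowest in both cases without control B-ALL replicate 1. Of 121 tested pathway genes, 13 rose and 52 fell, and leaving out 1 library gave 9 to 21 (21 without control B-ALL replicate 2) and 37 to 48. The cause of these shifts was not tested. Voom moved the median of all genes by 0.11 on the log2 scale and dropping the filter by 0.10, and the other settings by less; Uhrf1 stood at 0.91 with voom, against 0.79. Rescaling without the 50 highest genes removed no mitochondrially encoded entry, since none carried such a name. Without single libraries the Uhrf1 to Dnmt1 difference ran from 0.55 to 1.14, Uhrf1 to the S-phase mean from 0.95 to 1.30, and Dnmt3a to Dnmt3b from -0.05 to 0.57. Depth limited Tet1 alone among the members, at 1 to 15 reads per library.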

Other observations

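Genes that DNA methylation is known to keep silent or to imprint were read as a further description. Of 16 germline genes known to be silenced by promoter methylation, 15 stayed under 1 TPM in every library and 9 had no read in any. The exception was Rpl10l, a retrocopy of a ribosomal protein gene, at 3.97, 2.69 and 1.94 TPM against 0 and 0 TPM (limma adjusted p = 0.00457); reads of its parent gene may be shared with it, which was not tested. Ddx4, the germ-cell helicase, was at 0 in the 3 Pax5-Etv6 libraries and at 0.624 and 0.516 TPM in the controls. Sycp3, whose entry carries the overlap tag, was also at 0 in those 3 libraries, against 0.643 and 0.364 TPM. Neither of these was tested in the main fit. Across the 15 alternatives 0 to 1 of the germline genes rose and 0 to 2 fell.

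Of 30 imprinted genes matched, 8 were tested with limma, of which 2 fell, none rose and 6 were not called (at an unadjusted p under 0.05, 3 and 1, and with voom 3 and 1). Among all tested genes 29.7% fell and 21.9% rose. The ubiquitin ligase Ube3a, whose entry carries the overlap tag, fell by 1.81 (adjusted p = 0.00428), and the receptor Igf2r fell by 0.86 (adjusted p = 0.0277), a call lost without Pax5-Etv6 replicate 3 (adjusted p = 0.0568) and without control replicate 1 (adjusted p = 0.0884) or 2 (adjusted p = 0.11). Without either control library 1 imprinted gene fell, and without control replicate 2 another rose. Dlk1, a paternally expressed ligand, had 44.4 TPM in Pax5-Etv6 replicate 1, 4.53 and 0.935 TPM in replicates 2 and 3, and 3.63 and 3.6 TPM in the controls, and was not called (adjusted p = 0.615).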
